A study of Mus musculus with 12 samples.

Results

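The nuclear-encoded subunits of the respiratory chain were compared between mice without Nrep and wild-type mice in iWAT, the inguinal white fat that lies under the skin. The set was taken by gene symbol: symbols starting with Ndufa, Ndufb, Ndufc, Ndufs, Ndufv, Uqcr, Cox4, Cox5, Cox6, Cox7, Cox8 or Atp5. Of 89 such rows, 8 Ndufaf genes, which encode assembly factors, 2 pseudogenes and the 2 genes Cox7a1 and Cox8b were left out by the rule. This left 77 of the 33200 genes of the count table: 38 of complex I, 8 of complex III, 14 of complex IV and 17 of complex V. The rule uses symbols and no threshold on a value. The set is by prefix, so a few members are related genes rather than fixed subunits, among them Cox7a2l, which encodes a factor that joins complexes III and IV. Ndufa4 and its relative Ndufa4l2 were counted with complex I by name, although the Ndufa4 protein is known to sit in complex IV.

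The study asked which transcripts differ with genotype within a tissue. Poly(A) RNA of whole iWAT was sequenced at 16 weeks of age in 3 wild-type C57BL/6 samples and in 3 samples from mice with a global Nrep knockout (KO) made with CRISPR/Cas, all kept free of specific pathogens on a standard diet. The labels call the 3 libraries of each group biological replicates without saying that each came from 1 animal, so p-values measure the spread between these samples. Liver, with 6 samples, is not analysed here. No cell type drives the deletion, which all cells of the KO mice carry, and whether they derive from 1 founder was not known from the labels.

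The respiratory chain sits in the inner mitochondrial membrane. Complex I takes electrons from NADH, complex III passes them from ubiquinol to cytochrome c, and complex IV passes them to oxygen. These complexes pump protons, and complex V, the ATP synthase, uses the returning protons to make ATP. In white fat the chain supports the ATP and citrate that lipid synthesis needs, and in brown and beige fat uncoupling protein 1 lets the proton gradient run down as heat. Most subunits are encoded in the nucleus, and a small set by the mitochondrial DNA.

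Libraries held 17970451 to 20369345 estimated counts. For Nrep, the deleted gene, wild-type libraries gave 1404, 1640 and 1300 counts, and KO libraries gave 2, 2 and 5. Levels below are CPM, the counts of a gene relative to the TMM-scaled total of its library. The fat identity of the tissue was present in all 6 libraries, with Adipoq, the adipokine of mature fat cells, between 1306 and 2879 CPM. Libraries stood apart before any subunit was considered. Skeletal muscle markers summed to 24.6, 18.6 and 24.2 CPM in wild type and to 4488, 746 and 4148 CPM in KO. Markers of B and T cells summed to 1054, 1073 and 1023 CPM in wild type and to 565, 1239 and 313 CPM in KO. KO replicate 2 was the KO library with the lowest muscle sum and the highest lymphocyte sum.

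Nearly the whole chain was higher in KO than in wild-type tissue by about the same factor. No single subunit passed the test over all genes, in a fit that called 0.865% of all genes higher. The log2 fold change of KO over wild type was positive for 75 of the 77 subunit genes, with a median of 0.57 (1.49-fold) and quartiles of 0.48 and 0.67. Over all 16656 tested genes 44.2% were positive, the median was -0.06, and the quartiles were -0.30 and 0.24. All 77 members passed the filter on low counts. This direction is relative to all genes: with libraries scaled to their mature adipocyte markers instead, the median of the members was -0.17, with 11 positive and 66 negative. That scaling divides by the summed CPM of 14 markers, in which Fabp4, Cfd and Lpl weigh most. Their KO means were 9347, 7981 and 5961 CPM, in a mean sum of 38888 CPM. Summed over the set, the subunits had 9446, 8568 and 9004 CPM in wild type and 13755, 11366 and 14858 CPM in KO. The KO libraries all lay above the wild-type libraries, with means of 9006 ± 439 and 13326 ± 1785 CPM (SD, n = 3 per group), a ratio of 1.48. As a share of all counts, with no scaling factor, the subunits took 0.988%, 0.902% and 0.939% in wild type and 1.26%, 1.17% and 1.35% in KO.

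No member had a Benjamini-Hochberg adjusted p under 0.05 in edgeR's quasi-likelihood test, in either direction; the lowest was 0.0513. Over all genes, 0.865% were called higher and 0.162% lower. With so few calls over all genes, the count of 0 says little about the members. At an unadjusted p under 0.05, 71 members were higher, against 12.8% of all genes, and at an adjusted p under 0.10, 53 members were, against 5.52% of all genes. The DESeq2 test called 66 members higher (7.34% of all genes), and limma-voom called 0, in a fit that called 2 of the 16656 genes higher. In 70 members every KO library lay above every wild-type library, an arrangement that 15.2% of all genes had. No member had every KO library below every wild-type library, as 13.1% of all genes had. The count turned on KO replicate 2: without it edgeR called 70 members higher, against 14.5% of all genes, while leaving out wild-type replicate 3 gave 1 member (Ndufa4l2) among 104 genes called higher. Leaving out any other library gave 0 members, in fits that called 0 to 2 genes higher in all, so these counts say nothing about the members. Without a filter on low counts 43 members were called, against 2.8% of all genes, and with the replicate number as a block 34 were, against 4.74%.

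**Figure D1:**
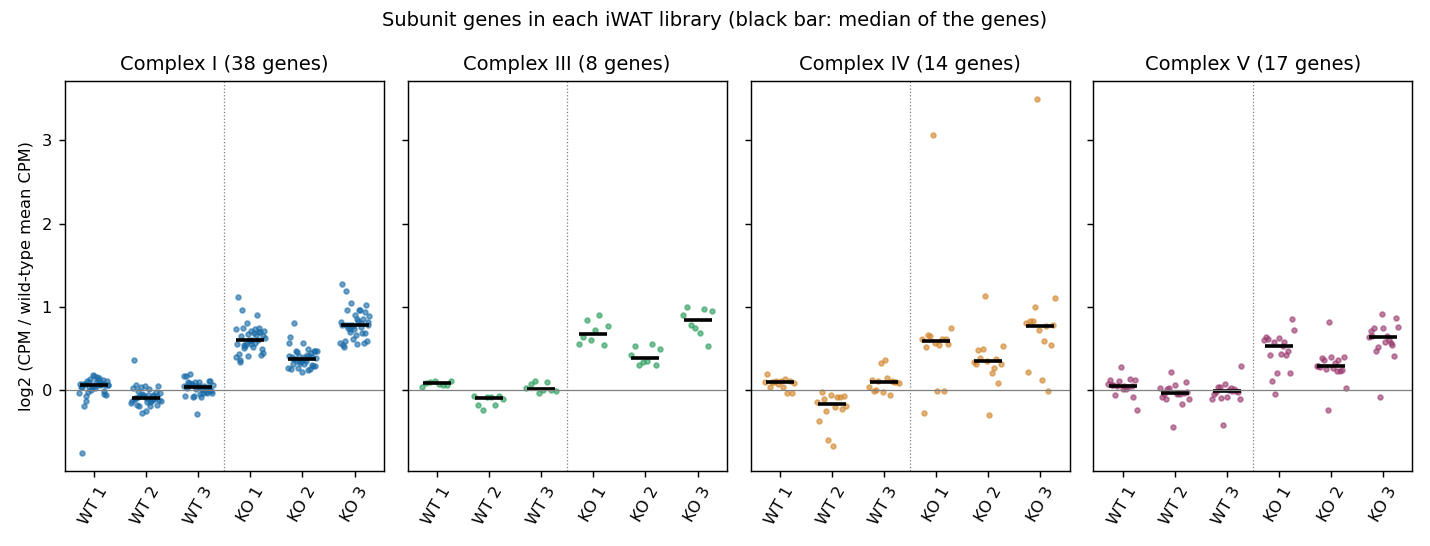
Each point is 1 subunit gene in 1 library, as log2 of its CPM over the wild-type mean, in a panel per complex, and black bars are medians of the genes. Over all 77 genes the medians were 0.07, -0.08 and 0.03 in wild type and 0.60, 0.36 and 0.76 in KO, with KO replicate 2 closest to wild type; scaling to adipocyte markers turned the sign of the difference.

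Most members shared their highest and lowest libraries. KO replicate 3 held the highest value of 66 members, KO replicate 1 of 7 and KO replicate 2 of 2, and KO replicate 2 was the lowest KO library for 69 members. Wild-type replicate 2 was the lowest wild-type library for 58. In KO replicate 2, 73 members were higher than in every wild-type library, but the share of all genes with this arrangement was not counted. Since members moved together by library, these are not 73 separate results. The size of the difference varied little among most members: 68 had a log2 fold change between 0.40 and 0.85. The share of all genes in that range was not counted. A 95% confidence interval above 0 was found for 71 members, the same number as at an unadjusted p under 0.05 in edgeR. Of all genes, 12.8% were higher at that threshold.

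Complex I, the entry point for electrons from NADH, was higher throughout. All 38 genes had positive log2 fold changes and no overlap between the groups, with a median of 0.61 (1.52-fold), a range of 0.42 to 1.03 and edgeR adjusted p between 0.0513 and 0.125. The 7 genes of the catalytic core in the matrix arm had a median of 0.65, the 9 accessory genes of that arm 0.59 and the 19 accessory genes of the membrane arm 0.58, so the medians of the arms lay close together.

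Ndufs1, the large iron-sulphur subunit that passes electrons on from the NADH site, had 140, 127 and 133 CPM in wild type and 250, 177 and 233 CPM in KO. Its log2 fold change was 0.72 (SE 0.159, 95% interval 0.36 to 1.09, edgeR adjusted p = 0.063). Ndufv1, which binds NADH, had 120, 103 and 111 CPM in wild type and 175, 153 and 196 CPM in KO. In both genes KO replicate 2 was the lowest KO library and still above wild type. Ndufv2, the partner of Ndufv1, had a log2 fold change of 0.63 and Ndufs3 one of 0.70. Ndufs7, which lines the ubiquinone site, had a log2 fold change of 0.69, and Ndufs8, which carries iron-sulphur clusters between the sites, one of 0.45. Ndufs7 had 34.0, 28.9 and 35.2 CPM in wild type and 46.2, 45.3 and 66.5 CPM in KO, with replicate 3 set above the other KO libraries.

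The extremes of complex I were accessory or related genes. Ndufa12, an accessory subunit of the matrix arm, had the highest log2 fold change, 1.03 (SE 0.293, adjusted p = 0.101), with 24.8, 53.9 and 47.4 CPM in wild type and 91.2, 65.7 and 102 CPM in KO. Wild-type replicate 1 was low for this gene, with 467 counts against 1155 and 993 in the other wild-type libraries. The deposited count of Ndufa12 was whole in wild-type replicate 1. It was not whole in 3 libraries, which were wild-type replicates 2 and 3 and KO replicate 1. Ndufa4l2, a relative of Ndufa4 known to be induced by low oxygen, had 6.01, 6.20 and 7.55 CPM in wild type and 12.8, 11.6 and 15.1 CPM in KO. Its log2 fold change of 1.00 (SE 0.179, interval 0.58 to 1.41) had an edgeR adjusted p of 0.0513, and its 3 KO libraries lay close together. Ndufa4 itself had 151, 126 and 151 CPM in wild type and 224, 177 and 245 CPM in KO, a log2 fold change of 0.59. Ndufa4l2 amounted to 3.99, 4.91 and 4.998 CPM per 100 CPM of Ndufa4 in wild type and to 5.75, 6.53 and 6.18 in KO, without overlap. The lowest values of complex I were those of Ndufa13 and Ndufa1, small membrane-arm subunits, each at 0.42, with 59.9 to 66.6 against 76.8 to 93.5 CPM for Ndufa13 and 41.2 to 51.5 against 55.2 to 68.0 CPM for Ndufa1.

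**Figure D2:**
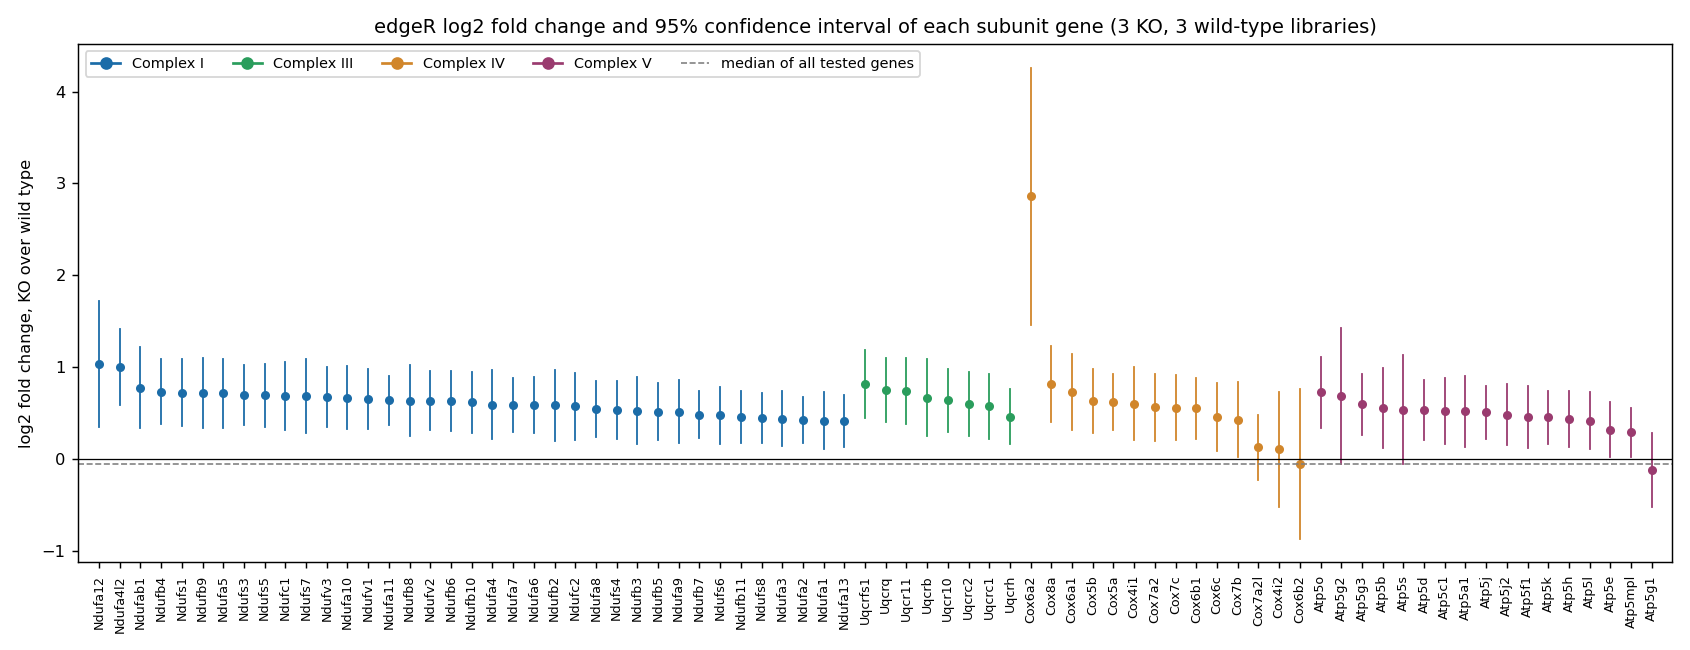
Points are log2 fold changes of KO over wild type and bars 95% confidence intervals from edgeR (3 libraries per group), ordered by size within each complex, with 1 gene of complex I not drawn; the dashed line is the median of all tested genes, -0.06. Under TMM scaling most genes of the 4 complexes lie between 0.40 and 0.85, Cox6a2 lies at 2.86, and Atp5g1 and Cox6b2 lie below 0; scaled to adipocyte markers, 66 of the 77 lie below 0.

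Complex III, which passes electrons from ubiquinol to cytochrome c, had the highest median of the 4 complexes. All 8 genes were without overlap, with a median of 0.65 (1.57-fold), a range of 0.46 to 0.82 and edgeR adjusted p between 0.0578 and 0.0975. Uqcrfs1, the Rieske iron-sulphur protein, had 140, 118 and 143 CPM in wild type and 251, 197 and 263 CPM in KO, a log2 fold change of 0.82 (SE 0.160, interval 0.45 to 1.19, adjusted p = 0.0578). Uqcrq, a small subunit near the membrane, followed at 0.75, with 84.9 to 98.7 CPM in wild type and 129 to 177 CPM in KO. The core proteins Uqcrc1 and Uqcrc2, which scaffold the matrix side, had log2 fold changes of 0.57 and 0.60. Uqcrc2 had 228, 205 and 216 CPM in wild type and 357, 276 and 349 CPM in KO. Uqcrh, the hinge protein that helps dock cytochrome c, was lowest at 0.46. Cyc1, the cytochrome c1 subunit of the same complex that the prefixes do not capture, had 109, 85.7 and 100 CPM in wild type and 171, 141 and 198 CPM in KO, a log2 fold change of 0.80. Cycs, cytochrome c itself, had 95.4, 77.3 and 79.0 CPM against 191, 111 and 147 CPM, a log2 fold change of 0.83, also without overlap.

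Complex IV, cytochrome c oxidase, is given by kind of gene, a grouping chosen with the values in view. Its 14 genes had a median of 0.56 (1.48-fold), with 13 positive, 10 without overlap and 4 with overlap. The 10 widely expressed subunits had a median of 0.58 and a range of 0.43 to 0.81, and in 9 of them the groups did not overlap. Cox4i1, the common form of subunit 4 that binds regulatory nucleotides, was the most abundant, with 385, 326 and 370 CPM in wild type and 552, 457 and 631 CPM in KO, a log2 fold change of 0.60 (adjusted p = 0.0982). Cox8a, the smallest subunit in its common form, had the largest value among them, 0.81 (adjusted p = 0.063), with 115, 95.7 and 116 CPM in wild type and 183, 157 and 236 CPM in KO. Cox6b1, which faces the intermembrane space, and Cox7a2, a membrane-embedded subunit, had log2 fold changes of 0.55 and 0.56. Cox7b had 118, 94.2 and 117 CPM in wild type and 168, 116 and 160 CPM in KO, and overlapped because KO replicate 2 lay at the wild-type level (log2 fold change 0.43, adjusted p = 0.199).

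The tissue-restricted and related genes of complex IV had a median of 0.12 over 4 genes but a wide range of -0.05 to 2.86, and 3 of them overlapped between the groups. Cox6a2, the form of subunit 6A typical of heart and skeletal muscle, stood out with the highest log2 fold change of the set. Wild-type libraries gave 20, 14 and 26 counts and KO libraries 144, 44 and 201, or 1.06, 0.653 and 1.24 CPM against 8.26, 2.17 and 11.2 CPM. The log2 fold change was 2.86 (SE 0.602, interval 1.46 to 4.26, adjusted p = 0.063), and KO replicate 2 was far below the other KO libraries. The summed muscle markers were likewise lowest in KO replicate 2 among the KO libraries, and 12 of their 14 tested members rose past the edgeR test. Ckm, the muscle creatine kinase, had 0.160, 0 and 0.048 CPM in wild type and 567, 98.2 and 486 CPM in KO. The part of muscle RNA in the level of Cox6a2 was not tested. Cox6a1, the form of the same subunit in other tissues, had 160, 126 and 161 CPM in wild type and 235, 211 and 299 CPM in KO, a log2 fold change of 0.73. Cox6a2 thus made up 0.663, 0.518 and 0.769 CPM per 100 CPM of Cox6a1 in wild type and 3.52, 1.03 and 3.74 in KO. Per kilobase of transcript, the mean level of Cox6a1 was 262 CPM in wild type and 434 CPM in KO, and that of Cox6a2 was 1.45 and 10.6 CPM, so the common form was far more abundant in both groups.

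Cox4i2, the form of subunit 4 known from lung and from low oxygen, had 3.72, 2.52 and 3.54 CPM in wild type and 2.70, 4.04 and 3.78 CPM in KO, with overlap and a log2 fold change of 0.11 (interval -0.52 to 0.73, edgeR adjusted p = 0.827), which is -0.02 with library totals. Cox6b2, the testis form of subunit 6B, was near the detection limit with 0.840 to 1.72 CPM in wild type and 1.08 to 1.45 CPM in KO, a log2 fold change of -0.05 (interval -0.87 to 0.76; 0.000133 in limma-voom). Cox7a2l had 167, 161 and 183 CPM in wild type and 169, 221 and 169 CPM in KO. Its log2 fold change was 0.13 (interval -0.22 to 0.48, adjusted p = 0.624), and KO replicate 2, the lowest KO library for most of the set, was the highest here. The counts of Cox7a2l were not whole in any library, so how reads were shared with a similar sequence can enter this value. Set against Cox7a2, it stood at 161, 179 and 202 CPM per 100 CPM in wild type and at 116, 193 and 105 in KO, with overlap. The excluded Cox7a1 and Cox8b, forms typical of muscle and thermogenic fat, had overlapping groups and log2 fold changes of 0.63 and 0.64. Cox7a1 had 7.34, 2.43 and 12.6 CPM in wild type and 12.5, 6.90 and 15.3 CPM in KO.

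**Figure D3:**
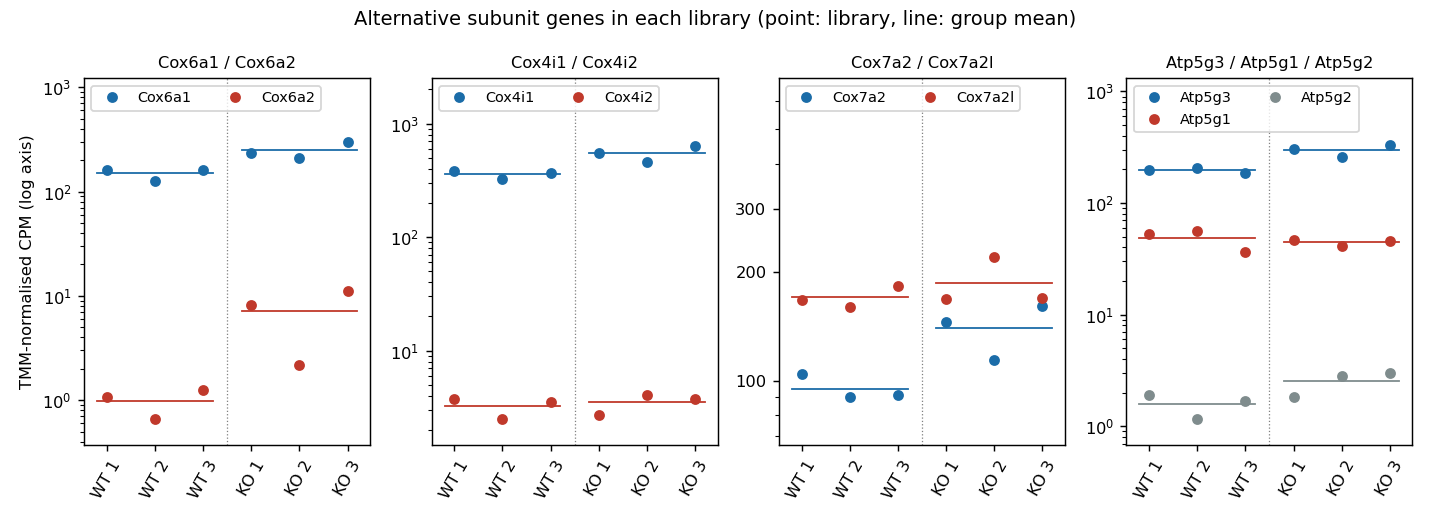
CPM on a log axis of alternative genes for the same subunit in each library (points) with group means (lines). Cox6a2 is higher in every KO library, from 0.653 to 1.24 CPM in wild type to 2.17 to 11.2 CPM in KO, whereas Cox4i2, Cox7a2l, Atp5g1 and Atp5g2 overlap between the groups.

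Complex V, the ATP synthase, had the lowest median, 0.51 (1.42-fold), with 16 of 17 genes positive and 14 without overlap. The F1 part, which includes the catalytic head, was represented by 5 genes with a median of 0.52. Atp5b, the catalytic beta subunit and the most abundant member of the set, had 1333, 1161 and 1192 CPM in wild type and 1919, 1500 and 2006 CPM in KO, a log2 fold change of 0.56 (interval 0.12 to 0.99, edgeR adjusted p = 0.140). Atp5a1, the alpha subunit, had 768, 741 and 679 CPM against 1105, 895 and 1134 CPM, a log2 fold change of 0.52. In both, all KO libraries were above wild type. The 4 stalk genes had a median of 0.48, headed by Atp5o, the oligomycin sensitivity subunit that ties the head to the stalk, with 158, 143 and 135 CPM in wild type and 264, 192 and 265 CPM in KO (log2 fold change 0.73, adjusted p = 0.067). The small membrane subunits were lowest, with a median of 0.44 over 4 genes, and Atp5mpl had 0.29.

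The c ring, the rotor that protons turn, is built from a single mature protein that Atp5g1, Atp5g2 and Atp5g3 encode with different import sequences. The 3 genes differed among themselves. Atp5g3, the main c gene here, had 199, 204 and 186 CPM in wild type and 304, 259 and 329 CPM in KO, a log2 fold change of 0.60 (interval 0.27 to 0.93, adjusted p = 0.0733). Atp5g1 had 52.3, 56.3 and 36.3 CPM in wild type and 47.0, 40.9 and 45.6 CPM in KO, with a log2 fold change of -0.12 (interval -0.52 to 0.28, adjusted p = 0.694) and overlapping groups. Atp5g1 amounted to 26.3, 27.6 and 19.5 CPM per 100 CPM of Atp5g3 in wild type and to 15.5, 15.8 and 13.9 in KO, without overlap and with no dependence on the scaling of libraries. Atp5g2 was scarce, with 1.92, 1.17 and 1.67 CPM in wild type and 1.84, 2.81 and 3.00 CPM in KO. The counts of Atp5g1 and Atp5g2 were not whole in some or all libraries, so reads shared with copies of these genes can enter their values.

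The 250 bases upstream of the transcription start of the c genes with and without a higher level are shown for comparison, since both genes feed the same rotor. They come from RefSeq on GRCm38.p6, each on the minus strand and written 5′ to 3′ toward the start, at chr11:96075632-96075881 for Atp5g1 and chr2:73911327-73911576 for Atp5g3; the motifs searched below occur in neither.
Atp5g1: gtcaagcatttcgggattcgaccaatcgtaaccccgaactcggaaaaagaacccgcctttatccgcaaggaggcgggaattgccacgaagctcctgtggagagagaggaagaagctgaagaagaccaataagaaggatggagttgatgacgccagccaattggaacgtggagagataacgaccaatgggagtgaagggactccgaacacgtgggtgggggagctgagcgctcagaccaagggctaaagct
Atp5g3: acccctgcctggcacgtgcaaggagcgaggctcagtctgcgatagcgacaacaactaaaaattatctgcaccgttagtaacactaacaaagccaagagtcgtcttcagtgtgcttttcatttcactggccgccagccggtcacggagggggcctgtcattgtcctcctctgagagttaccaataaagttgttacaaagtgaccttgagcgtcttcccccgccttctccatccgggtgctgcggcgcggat

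Promoters of the set were searched for the motifs of 3 factors. Of the 77 genes, 63 had a window in the RefSeq table; among those without one were Atp5a1, Atp5mpl, Cox4i1, Cox4i2, Cox6a2, Cox6c, Ndufa2, Ndufa4l2, Ndufb9, Ndufs1, Uqcrb, Uqcrc2 and Uqcrq. Nuclear respiratory factor 1 (NRF1), a known activator of respiratory genes, binds a palindrome whose core was searched as CGCATGCG. It occurred in the upstream 250 bases of 7 of 63 members (11.1%) and of 472 of 27025 genes with a window (1.75%). The motif CCGGAAGT, or ACTTCCGG on the other strand, of GABPA, the second nuclear respiratory factor, occurred in 3 members (Atp5h, Uqcr11 and Uqcrh, 4.76%) and in 3.23% of all genes. The YY1 motif AAGATGGC, or GCCATCTT, occurred in 1 member (Atp5j, 1.59%) and in 1.83% of all genes. None of the 3 motifs contains another. A match says only that these letters are in the window. The shares over all genes were not matched for the base content of promoters. Whether these factors had a part in the fold changes was not tested. The 7 members with the NRF1 core are shown with up to 20 bases on each side, the core in capitals, at chr2:36049339-36049367 (Ndufa8, minus strand), chr17:56717683-56717730 (Ndufa11, plus), chr5:115349092-115349139 (Cox6a1, minus), chr15:102671061-102671108 (Atp5g2, minus), chr16:84835096-84835143 (Atp5j, minus), chr5:108434421-108434468 (Atp5k, minus) and chr9:44920956-44920992 (Atp5l, minus).
Ndufa8: cgcttgcgcgtcgctggagaCGCATGCGc
Ndufa11: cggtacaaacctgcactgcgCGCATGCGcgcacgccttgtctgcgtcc
Cox6a1: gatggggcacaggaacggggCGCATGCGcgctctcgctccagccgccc
Atp5g2: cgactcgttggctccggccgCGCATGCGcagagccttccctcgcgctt
Atp5j: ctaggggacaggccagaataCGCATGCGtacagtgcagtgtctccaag
Atp5k: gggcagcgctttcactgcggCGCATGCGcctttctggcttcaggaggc
Atp5l: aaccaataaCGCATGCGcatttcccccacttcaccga

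The core began 9 bases before the start in Ndufa8, 41 in Atp5g2, 49 in Atp5k, 59 in Ndufa11, 147 in Atp5j, 161 in Cox6a1 and 241 in Atp5l. The log2 fold changes of these genes lay between 0.42 (Atp5l) and 0.73 (Cox6a1), within the range of the rest of the set. The factors that bind the 3 motifs had log2 fold changes slightly below 0, at -0.20 for Nrf1, -0.13 for Gabpa and -0.14 for Yy1, each with overlapping groups. In the wider list of 12 tested regulators of mitochondrial genes, 6 were positive, the median was -0.01 and 0 passed the test in edgeR, against 1 higher (Esrra) and 1 lower (Gabpb1) in DESeq2. Yy1 had 121, 115 and 123 CPM in wild type and 110, 116 and 99.1 CPM in KO, and Gabpa had 55.4, 47.5 and 60.1 CPM against 54.7, 47.3 and 46.7 CPM. Nrf1 had 32.3, 28.8 and 30.6 CPM in wild type and 25.3, 32.0 and 22.7 CPM in KO, with overlap. The next genes were singled out after their values were seen. Esrra, a nuclear receptor that drives mitochondrial genes, was without overlap at 37.4, 35.4 and 35.5 CPM against 45.3, 48.1 and 50.8 CPM (log2 fold change 0.41, adjusted p = 0.0801 in edgeR and 0.0128 in DESeq2). Its coactivator Ppargc1a overlapped, with 7.71, 3.08 and 8.31 CPM in wild type and 17.8, 5.42 and 12.7 CPM in KO. Gabpb1, the partner of Gabpa, lay lower in every KO library, with 32.9, 32.4 and 30.5 CPM against 22.2, 26.1 and 21.1 CPM (log2 fold change -0.47, adjusted p = 0.0877 in edgeR and 0.0467 in DESeq2).

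Other genes of the chain had similar values. The 4 genes of complex II, which links the citric acid cycle to the chain, were positive without overlap, with a median of 0.66, and 0 passed in edgeR (4 in DESeq2). Over all genes, 15.2% were higher in KO without overlap and DESeq2 called 7.34% higher. These shares apply to the lists below too. Sdha, its flavoprotein, had 563, 471 and 507 CPM in wild type and 838, 652 and 867 CPM in KO. The 13 subunits encoded by the mitochondrial DNA were all positive with a median of 0.85, but the groups overlapped in 10 of them and 0 passed in edgeR (9 in DESeq2). Summed, they had 45978, 33211 and 64241 CPM in wild type and 99910, 61127 and 88563 CPM in KO, so KO replicate 2 lay below wild-type replicate 3. Poly(A) selection captures these transcripts unevenly, which limits the comparison of their level with that of nuclear genes.

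Assembly factors had lower medians than the subunits they help to assemble, a difference that was not tested. The 14 factors of complex I were all positive, with a median of 0.46 and 10 without overlap, the 6 of complex III had a median of 0.35 with 3 without overlap, and the 17 tested of complex IV had a median of 0.29 with 16 positive and 10 without overlap; 0 of these passed in edgeR, against 6, 1 and 3 in DESeq2. Coa5 and Cox17, a copper carrier for complex IV, had log2 fold changes of 0.34 and 0.33. The 4 genes for assembly and inhibition of complex V had different signs. Atpaf2, the chaperone of the alpha subunit, rose with 32.6, 30.3 and 34.3 CPM in wild type and 58.5, 50.3 and 59.2 CPM in KO (log2 fold change 0.79, interval 0.52 to 1.06, edgeR adjusted p = 0.0409). Among the lists of chain, assembly and regulator genes it was the only one to pass in edgeR. Atpif1, the inhibitor that stops the ATP synthase from running backwards, singled out after its values were seen, had 28.5, 32.1 and 25.5 CPM in wild type and 19.5, 24.7 and 21.8 CPM in KO. Every KO library was below every wild-type library, with a log2 fold change of -0.38 (interval -0.71 to -0.05, adjusted p = 0.170).

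Markers of fat cells and of mitochondria were higher along with the subunits. Mature adipocyte markers were positive in 14 of 14 genes, with a median of 0.77. The groups did not overlap in 9 (15.2% of all genes), and 12 were past the test in DESeq2 (7.34% of all genes). In edgeR 1 passed (0.865% of all genes): Slc2a4, the insulin-responsive glucose transporter. It rose from 72.7, 66.1 and 94.6 CPM to 216, 163 and 275 CPM (edgeR adjusted p = 0.0435). The part of muscle RNA in the level of Slc2a4 was not tested. The sum of the adipocyte markers was 22135, 20139 and 26763 CPM in wild type and 41914, 27184 and 47566 CPM in KO. Subunit CPM per CPM of these markers was 0.427, 0.425 and 0.336 in wild type and 0.328, 0.418 and 0.312 in KO, so the groups overlapped on this scale. In bulk tissue, more cells of a type and more RNA per cell cannot be told apart. Mitochondrial import and matrix genes, which mark mitochondria outside the chain, had 12 of 12 positive, a median of 0.33 and 0 past the test in edgeR (3 in DESeq2). Their sum was 1963, 1882 and 1803 CPM in wild type and 2754, 2175 and 2849 CPM in KO. Subunit CPM per CPM of these genes was 4.81, 4.55 and 4.99 in wild type and 4.99, 5.23 and 5.22 in KO, with the lowest KO library and the highest wild-type library practically equal.

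**Figure D4:**
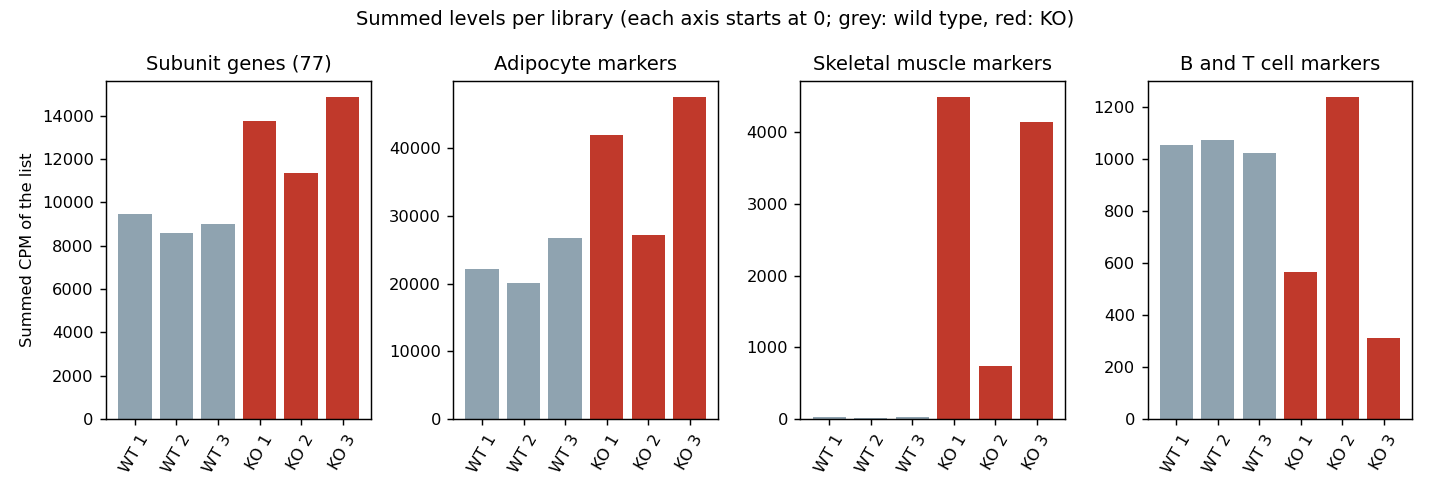
Bars are summed CPM of the 77 subunit genes and of the adipocyte, skeletal muscle and B and T cell marker lists in each library, each axis from 0. The subunits sit at 8568 to 9446 CPM in wild type and 11366 to 14858 CPM in KO, and KO replicate 2 is the lowest KO library in the first 3 panels and the highest in the last; divided by the adipocyte sum, the subunits overlap between the groups.

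KO replicate 2, the lowest KO library for both sums, had 746 CPM of muscle markers and 11366 CPM of subunits. KO replicate 1 had 4488 and 13755 CPM. With mitochondrial genes and muscle markers taken out before scaling, the median of the members was again 0.57 and their share of counts was 0.994% ± 0.0534 for wild type against 1.38% ± 0.113 for KO (SD, n = 3 per group). That step removed only the rows of those genes, and any subunit RNA from muscle cells stayed in the counts. It could therefore not show how much of the subunit RNA came from muscle cells, which was not tested. Brown and beige adipocyte markers were positive in 8 of 8 tested genes with a median of 1.31, and 0 passed in edgeR (6 in DESeq2). In 5 of them every KO library lay above every wild-type library, and in 3 the groups overlapped. Cidea had 103, 44.5 and 138 CPM in wild type and 192, 145 and 280 CPM in KO, without overlap. Kcnk3 had 48.6, 30.3 and 49.0 CPM against 84.8, 54.8 and 105 CPM, also without overlap. Ucp1 overlapped, with 28.1, 5.60 and 17.6 CPM in wild type and 46.2, 10.98 and 59.5 CPM in KO, and Zic1, a marker of classical brown fat, was at 0 in 5 libraries. Macrophage markers summed to 3022, 3631 and 2486 CPM in wild type and to 1802, 2029 and 1756 CPM in KO. Of the 8 genes, 2 were positive with overlapping groups, and in 6 every KO library lay below every wild-type library, as in 13.1% of all genes. Their median was -0.71 and 0 passed in edgeR, where the lowest adjusted p was 0.0595. The part of these lists in the subunit difference was not tested.

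**Figure D5:**
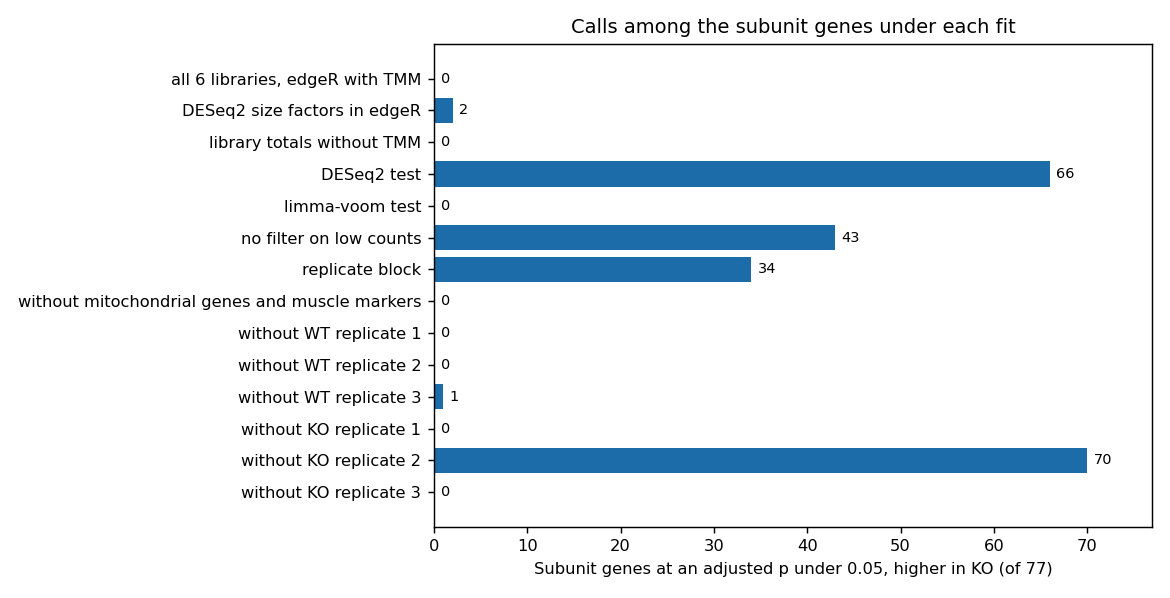
Bars give how many of the 77 subunit genes were higher in KO at an adjusted p under 0.05 in each fit. The count is 0 with all libraries in edgeR (0.865% of all genes called higher), 66 in DESeq2 (7.34%) and 70 in edgeR without KO replicate 2 (14.5%). The members' median stayed between 0.43 and 0.73 in all of these fits. This median was -0.17 when scaled to adipocyte markers.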

How the data were processed

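Per the labels' protocols, iWAT libraries were poly(A)-selected and made with a stranded Illumina kit. The authors deposited estimated counts per gene for 6 libraries, not scaled between libraries; 9.53% to 11.1% of values per library are not whole, and for 60 of the 77 members all are. The quantifier and annotation are not given in the sources used here. Per the submitters' processing notes, fastp, featureCounts, GRCm38 and GRCm39 were used in the series, without roles. Symbols came from GENCODE M21 and matched 79.5% of 33200 identifiers; unmatched rows took 0.975% to 1.38% of each library.

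Counts were rounded and tested with edgeR 4.0.16 in R 4.3.3 (quasi-likelihood F-test, robust, TMM, filterByExpr, no covariate, two-sided, Benjamini-Hochberg over 16656 genes, threshold 0.05). Alternatives were DESeq2 1.42.0, limma-voom (limma 3.58.1), other size factors, library totals, no filter, a replicate block, removal of mitochondrial genes and muscle markers, and leaving out each library. Scaling to adipocyte or to mitochondrial import and matrix markers, and the grouping of subunits by role, were chosen with the values in view. The scripts were tested on simulated counts. At this depth 3 counts correspond to 0.147 to 0.167 CPM, and that floor covers counting error only. Per-kilobase levels used GENCODE principal transcripts. A log2 fold change of CPM is KO over wild type.

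The members and lists were chosen with earlier results of these data known. Named members were, per complex, the 2 highest and 2 lowest log2 fold changes and the most abundant gene, members past the test, isoform pairs, c genes and catalytic core genes, and from each list up to 3 genes past the test or 2 by mean CPM. Others were named after their values were seen, or for their promoter motif. The values of 1 complex I member are not reported here singly; it stays in all counts and medians.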

Additional observations from a re-analysis of the deposited data

How the results depend on the processing

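The count of subunit genes called higher depended on the fit: 2 with DESeq2's size factors in edgeR, 66 in the DESeq2 test and 43 without a filter on low counts, against 0 with library totals, in limma-voom and without mitochondrial genes and muscle markers. In all, 163 of 16656 genes were called higher with DESeq2's size factors and 129 of 16656 with library totals. Without mitochondrial genes and muscle markers 108 of 16627 were. With so few calls over all genes, the counts of 2 and 0 in these 3 fits say little about the members. Leaving out 1 library gave 0 to 70, with 70 only without KO replicate 2 (2410 genes called higher in all) and 1 without wild-type replicate 3 (104); the other 4 of these fits called 0 to 2 genes higher in all, and limma-voom 2, so their 0 is no result about the members. The replicate block gave 34; same-numbered libraries did not all deviate together (r = -0.0122, 0.235 and 0.116), so the numbers were not taken as pairs. No fit called a member lower.

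The median log2 fold change lay between 0.43 and 0.73 over the 13 other fits, and 0.52 to 0.74 above that of all genes, which moved from -0.06 to -0.19 with library totals. Scaling to adipocyte markers gave a median of -0.17 and scaling to import and matrix markers 0.11 (62 positive, 15 negative). Of the 77 members, 74 were positive in all 13 of these fits. Among 34 named members, sign changes occurred in 3: Atp5g1 ranged from -0.29 to 0.00720 when 1 library was left out, Cox4i2 from -0.0486 to 0.26 (-0.0198 with library totals) and Cox6b2 from -0.30 to 0.18 (0.000133 in limma-voom). The causes were not tested. Cox6b2, Atp5g2, Cox6a2 and Cox4i2 have few counts, which limits their precision.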
